A study of Mus musculus with 44 samples.

Results

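The GDF9-only SMAD4 regions are the stretches of the mouse genome at which both SMAD4 peak lists of GDF9-treated granulosa cells held overlapping peaks and neither SMAD4 peak list of vehicle-treated cells held any. They were found by merging the overlapping peaks of GDF9 replicates 1 and 2, keeping the merged regions with a peak of each replicate, and dropping every region that a vehicle peak overlapped by at least 1 bp. This left 3734 of 9185 regions (40.65%, Wilson 95% interval 39.65 to 41.66%, which covers counting error only). The same rule turned around, both vehicle lists and no GDF9 peak, gave 5011 of 11622 regions (43.1%). The members were thus picked on the SMAD4 peaks themselves, and their SMAD4 values are given below as a description without a test. Regions of GDF9-treated cells that met a vehicle peak, 5451 in number, are called shared, and the 5011 regions of the turned-around rule are called vehicle-only.

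The series profiled primary granulosa cells, the somatic cells that surround the oocyte in the ovarian follicle, from immature female mice primed with a gonadotropin. Cells of several mice were pooled and cultured before recombinant mouse GDF9 or vehicle was added for 4 h. Homozygous Smad3PA/PA mice carry a PA peptide tag on SMAD3, and heterozygous Smad2HA/+ mice carry an HA tag on SMAD2, so the treated and the control cells of a line have the same tag. CUT&RUN, in which a tethered nuclease releases the DNA under an antibody, was run for SMAD2, PA, SMAD4 and H3K27ac in Smad3PA/PA cells and for SMAD2, HA, SMAD3 and H3K27ac in Smad2HA/+ cells, with 2 replicates per antibody, line and treatment, and RNA-seq was run on 2 GDF9 and 2 vehicle cultures of Smad3PA/PA cells. SMAD4 was profiled in the Smad3PA/PA line only. The study calls the replicates biological and made from pooled cells, and the sources used here do not say whether each came from its own set of animals, so p-values measure the spread between these samples.

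GDF9 is a growth factor of the TGF-beta family that the oocyte secretes. Its receptors on granulosa cells phosphorylate SMAD2 and SMAD3, which then join SMAD4, the common partner of the family, and enter the nucleus. The DNA-binding domains of SMAD3 and SMAD4 recognise the short SMAD box CAGAC, and SMAD complexes usually bind beside other factors, of which AP-1 is one of the best known. H3K27ac, acetylation of lysine 27 on histone H3, marks active promoters and enhancers.

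Windows of 101 bp at the centre of the stretch shared by both GDF9 peaks show what the regions look like at base level. All sequences below are from the plus strand of the RefSeq GRCm38 (mm10) assembly, 5′ to 3′, in lower case, with capitals for the SMAD box (CAGAC or GTCTG), the AP-1 core (TGANTCA) and the SP/KLF GC box (GGGCGG or CCGCCC). A match is a run of letters and not a measured binding site. The first set are 4 of 5 windows eligible for printing, away from promoters and with H3K27ac in all 4 lists of the line. Each holds at least 1 SMAD box and 1 AP-1 core, the pair of motifs whose shares are given below. Counts of eligible windows need not cover all members of a kind.
Esr1 intron (chr10:4984085-4984185): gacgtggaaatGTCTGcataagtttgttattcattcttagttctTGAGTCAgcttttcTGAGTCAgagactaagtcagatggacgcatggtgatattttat
Lpp intron (chr16:24733441-24733541): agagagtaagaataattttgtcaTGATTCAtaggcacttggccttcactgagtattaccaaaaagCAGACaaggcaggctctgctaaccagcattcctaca
intergenic near Slc7a6os (chr8:106198757-106198857): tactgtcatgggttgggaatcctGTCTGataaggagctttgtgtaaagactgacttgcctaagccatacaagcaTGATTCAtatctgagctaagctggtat
intron near 9630028H03Rik (chr2:135525954-135526054): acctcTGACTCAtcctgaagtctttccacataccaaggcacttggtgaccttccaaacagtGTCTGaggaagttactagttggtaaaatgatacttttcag
The first lies in an intron of Esr1, the gene of estrogen receptor alpha, 47.61 kb from the nearest start site, with stacks of 7 and 6 fragments in the 2 GDF9 replicates and the nearest vehicle peak 199 bp away.

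The second set are 3 of 43 eligible windows in promoter regions with H3K27ac in all 4 lists and an SP/KLF box in the window.
Cic promoter (chr7:25281929-25282029): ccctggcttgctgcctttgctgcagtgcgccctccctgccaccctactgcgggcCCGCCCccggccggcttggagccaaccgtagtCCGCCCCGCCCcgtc
Dusp23 promoter (chr1:172633049-172633149): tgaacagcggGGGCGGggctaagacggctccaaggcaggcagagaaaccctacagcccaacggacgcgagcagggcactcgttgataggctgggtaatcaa
Fam210b promoter (chr2:172345315-172345415): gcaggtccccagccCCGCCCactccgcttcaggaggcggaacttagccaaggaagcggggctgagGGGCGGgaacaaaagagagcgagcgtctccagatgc
Each had stacks of 9 to 11 fragments in both GDF9 replicates, and SMAD2, HA and SMAD3 peaks in every list of Smad2HA/+ cells with either treatment. The windows held 3 SP/KLF matches at Cic, 1 at Dusp23 and 2 at Fam210b, with 9, 7 and 7 CpG pairs.

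The third set are 3 of the 4 members that also had SMAD2 and PA peaks in both GDF9 lists and in no vehicle list, so that peaks of all the profiled SMAD proteins were listed with GDF9 only.
chromosome X, near Gm15236 (chrX:165538454-165538554): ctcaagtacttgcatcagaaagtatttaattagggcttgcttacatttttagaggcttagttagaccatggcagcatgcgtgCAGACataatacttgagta
Olfr1463 promoter (chr19:13231921-13232021): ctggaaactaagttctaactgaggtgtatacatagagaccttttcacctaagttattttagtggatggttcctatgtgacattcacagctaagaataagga
chromosome X, near Gm14493 (chrX:10780459-10780559): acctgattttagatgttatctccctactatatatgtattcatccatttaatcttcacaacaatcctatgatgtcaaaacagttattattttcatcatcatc
None of the 3 had H3K27ac in any list of the line. In these 3 windows 1 held a SMAD box and none an AP-1 core. Olfr1463 is an olfactory receptor gene.

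SMAD4 signal at the members was low. The deposited maxima were whole multiples of a fixed step in every list (100% within 0.05 of a whole number, for maxima under 100 steps), so each can be read as the number of DNA fragments stacked at the top of a peak. Over the 3734 members the stack was 5 fragments at the median in replicate 1 (10th to 90th percentile 4 to 8, highest 30) and 4 in replicate 2 (3 to 6, highest 19). Stacks of 10 or more were found at 126 members (3.37%) in replicate 1 and 38 (1.02%) in replicate 2. Shared regions had medians of 6 and 5 fragments, with 19.2% and 8.70% at 10 or more. Whole lists had medians of 5 and 4 fragments for GDF9 and 5 and 4 for vehicle, so the members sat at about the middle of their own lists, at median percentiles of 46.0 and 49.9.

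**Figure D1:**
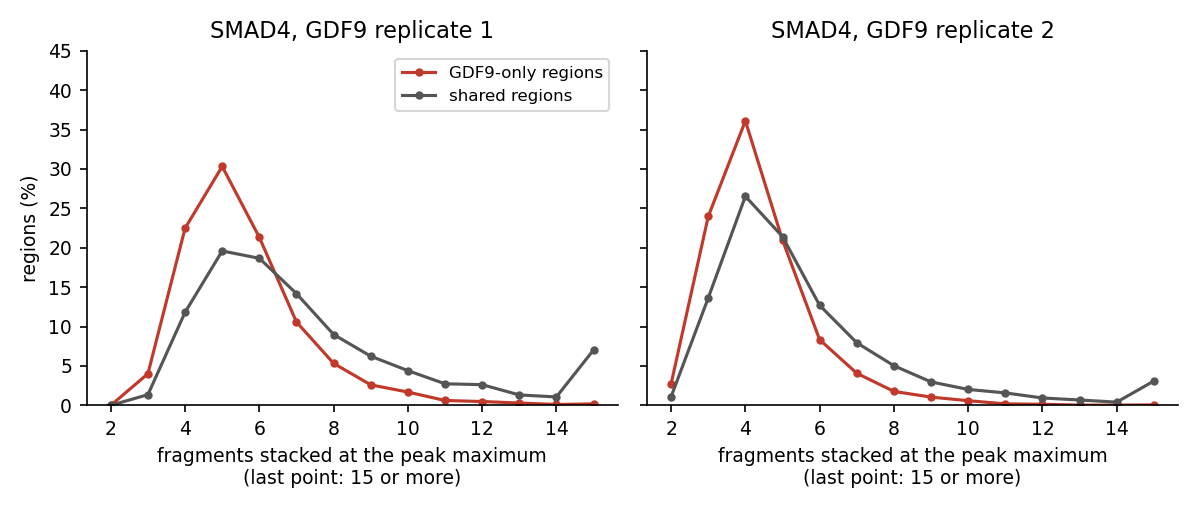
Share of regions (y axis, percent) by the number of fragments stacked at the SMAD4 maximum (x axis, the last point holding 15 or more) in GDF9 replicates 1 and 2, for GDF9-only (red) and shared (gray) regions. The GDF9-only regions peak at 5 and 4 fragments and have almost none of the tail that shared regions have.

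The replicates of one treatment shared few peaks, about as few as lists of different treatments did. Lists held 71881 and 58442 peaks with GDF9 and 69168 and 63183 with vehicle. Of the peaks of GDF9 replicate 1, 13.1% met one of GDF9 replicate 2, while 19.4% met one of vehicle replicate 1 and 16.2% one of vehicle replicate 2. Of the peaks of vehicle replicate 1, 17.4% met one of vehicle replicate 2 and 20.1% one of GDF9 replicate 1. Of the 5451 shared regions, 1852 met vehicle 1 only, 1148 vehicle 2 only and 2451 both. Leaving out 1 vehicle list raised the GDF9-only count to 5586 or 4882, and leaving out 1 GDF9 list, so that single peaks counted, raised it to 43989 or 51505.

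A member spanned 1014 bp at the median (212 to 3155 bp), of which 414 bp were common to both peaks, and the maxima of the 2 replicates lay 245 bp apart (186.5 bp in shared regions). At the edge of the rule, 119 members had a vehicle peak within 100 bp and 904 within 1 kb, against a median gap of 3087.5 bp. Just across it, 94 shared regions met a vehicle peak by less than 100 bp, against a median of 668 bp. In 269 members the replicate peaks themselves overlapped by less than 100 bp.

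The strongest members were of 2 kinds. Ranked by the lower of the 2 within-list percentiles, the top 10 included promoters of genes with general cell functions. Among these were Jkamp (chr12:72085220-72085900, stacks of 14 and 19 fragments), which encodes a membrane protein that anchors JNK kinase, and Rasa3 (chr8:13677305-13678344, 16 and 10), which encodes a RAS GTPase-activating protein. Mmachc, needed for cobalamin processing, Cox7a2, a subunit of cytochrome c oxidase, and Ngdn, a translation regulator, supplied 3 more. The Jkamp region had a vehicle peak only 7 bp away. The rest lay at Btbd16 (chr7:130774720-130774931, 30 and 12 fragments), upstream of Sfi1, and in intergenic stretches of chromosomes 4, 5 and 13, one of them near a member of the multicopy Speer family. Reads from such multicopy sequence can match several copies, and the signal there is uncertain. The study states that it kept uniquely mapped reads for its normalization.

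Independent antibodies were then asked whether the members were sites of SMAD2 and SMAD3 in the same line. SMAD2 peaks met 12.3% and 12.6% of the members in the 2 GDF9 lists and 12.02% and 1.42% in the vehicle lists. The last list was short, with 23082 peaks against 78699 to 81283 in the others. Means were 12.47 ± 0.208% with GDF9 and 6.72 ± 7.50% with vehicle (SD, n = 2 lists), a difference of 5.745 percentage points (two-sided exact permutation test over lists, p = 0.333, the smallest that 2 against 2 allows). For these members the difference was 0.442 points with the short list left out and 11.05 with the other vehicle list left out.

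PA-tagged SMAD3 met 6.96% and 7.07% of the members with GDF9 and 7.04% and 3.75% with vehicle (a difference of 1.62 points, exact permutation p = 0.667). The GDF9 values lay on both sides of the first vehicle value. In shared regions the shares were higher, with SMAD2 at 32.0% in the GDF9 lists and PA at 18.05%. The GDF9-minus-vehicle difference there was 12.28 points for SMAD2 and 1.84 for PA, and in vehicle-only regions 3.31 and 1.61, so the sign was the same in all 3 sets.

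No SMAD2 or PA peak in any of 8 lists met 2377 members (63.7%). Peaks of both SMAD2 and PA in both GDF9 lists met 60 members (1.61%, 1.25 to 2.06%), compared with 743 shared regions (13.6%) and 38 vehicle-only regions (0.758%). Of these 60, 56 also had a SMAD2 or PA peak in a vehicle list, which leaves 4, of which 3 are printed above. Repeats were common among the 60: 29 windows (48.3%) were mostly repeat, against 12.2% of all members. Chromosome X held 8 of them, and 58 had no H3K27ac in any list.

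H3K27ac met 29.1% and 28.5% of the members in the GDF9 lists and 29.4% and 30.5% in the vehicle lists (a difference of -1.14 points, exact permutation p = 0.333). Both vehicle values were above both GDF9 values, from lists that covered more of the genome (4.37 and 4.775% against 3.965 and 3.99%). Of the 931 members with the mark in both GDF9 lists, 25 had it in no vehicle list. At the marked members, a minority, the mark was thus mostly present in cells without GDF9 too. All 4 lists had the mark at 837 members (22.4%), none at 2362 (63.3%) and 1 to 3 lists at 535. The share without the mark was 53.6% in shared and 71.5% in vehicle-only regions, so the GDF9-only regions lay between them.

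Cells of the Smad2HA/+ line had peaks at more of the members, with either treatment. Their SMAD2, HA and SMAD3 lists also covered more of the genome, 3.75 to 4.43% each. The SMAD2 and PA lists of Smad3PA/PA cells covered 0.237 to 2.37%. The part of coverage in the higher shares was not tested. SMAD2 met 24.9% and 25.8% with GDF9 and 28.15% and 27.2% with vehicle, SMAD3 30.6% and 33.9% with GDF9 and 35.2% and 35.6% with vehicle, and HA 29.2% and 35.2% with GDF9 and 34.2% and 35.1% with vehicle. The vehicle means were 27.69%, 35.43% and 34.63%, and the GDF9 means 25.37%, 32.27% and 32.20%, with exact permutation p = 0.333, 0.333 and 1. H3K27ac of this line met 49.3% and 49.4% with GDF9 and 48.5% and 48.2% with vehicle, from lists that covered 16.7 to 17.3% of the genome. Peaks in all 12 SMAD2, HA and SMAD3 lists were found at 444 members (11.9%, against 31.2% of shared and 4.11% of vehicle-only regions), and 1233 members (33.0%) had none.

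SMAD peaks of the other line were concentrated at the acetylated members. Where H3K27ac was present in all 4 lists, SMAD3 peaks were found in both GDF9 lists of Smad2HA/+ cells at 72.4% of the members and in both vehicle lists at 82.4%. Where it was absent the shares were 5.84% and 8.47%. The other 2 sets had the same pattern. Shared regions had 84.1% and 90.8% with the mark in all 4 lists, and 21.9% and 22.7% with it in none. Vehicle-only regions had 58.8% and 70.55% with it, and 2.54% and 3.77% without. A core of 501 members (13.4%) had H3K27ac in all 4 lists and SMAD3 and HA in all 4 lists each, and 361 of them (72.1%) were promoters. At the other end, 878 members (23.5%) had no peak in the 20 other SMAD lists of both lines, and 521 (14.0%) met no other list at all.

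**Figure D2:**
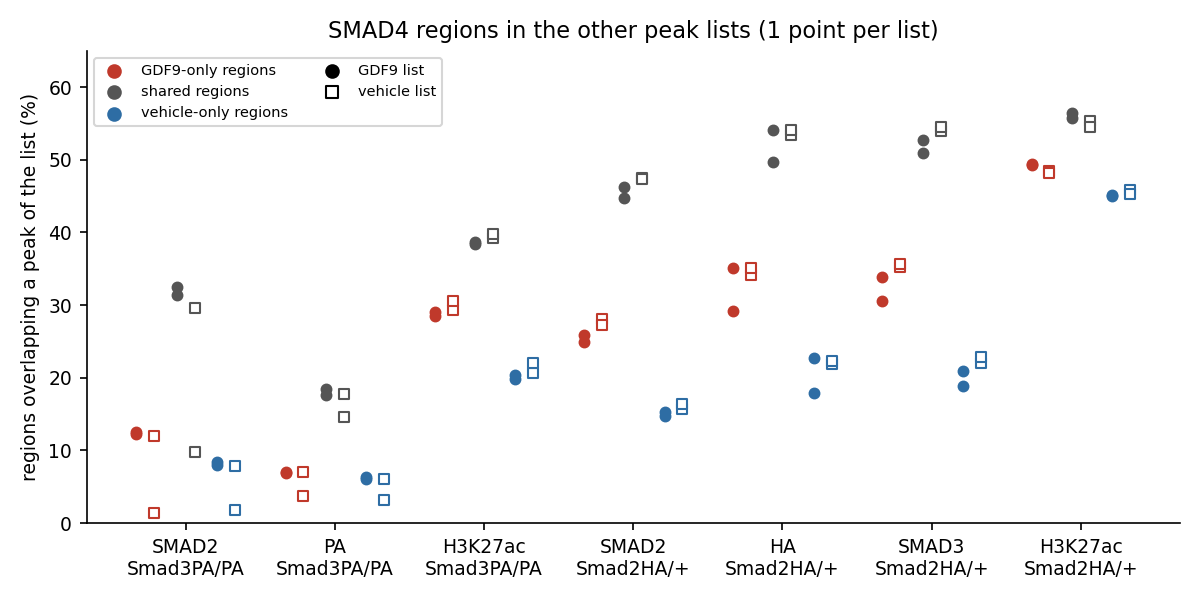
Percent of GDF9-only (red), shared (gray) and vehicle-only (blue) SMAD4 regions that overlapped a peak of each other list, by antibody and line, with filled circles for GDF9 lists and open squares for vehicle lists. At the mean of each pair of lists GDF9-only regions lie between the shared and the vehicle-only regions for every antibody, and the circles stand above the squares by no more than 1.14 percentage points at the mean, except for SMAD2 and PA of Smad3PA/PA cells, where 1 vehicle list is low.

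Promoters, defined as the 3 kb before and after each start site, held the centres of 1063 members (28.5%, 27.04 to 29.94%), 655 of them (17.5%) within 1 kb. Another 104 (2.79%) lay in exons, 613 (16.4%) in first introns, 865 (23.2%) in other introns and 1089 (29.2%) between genes. Promoters made up 33.9% of shared and 20.6% (19.5 to 21.7%) of vehicle-only regions, and 49.8% of 20417 H3K27ac regions. The median distance to a start site was 8.90 kb for the members, 7.59 kb for shared and 11.25 kb for vehicle-only regions. Away from promoters, 321 members had H3K27ac in all 4 lists, 334 in 1 to 3 lists and 2016 in none, so marked distal regions, the class in which active enhancers fall, were few.

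Base composition followed these classes. Within 150 bp of their centres the members had 4.49 CpG pairs, against 2.76 and 2.75 in windows 2 kb to either side, at a like GC content (41.4% and 42.0%), and 22.4% of their bases were repeats against 30.5% and 31.2%. Windows with 10 or more CpG pairs made up 12.02% of the members, 17.1% of shared and 2.63% of vehicle-only regions. Among promoters these shares were 36.7%, 45.8% and 9.98%. The whole peak list of GDF9 replicate 2 was itself richer in such windows, with 7.22% against 3.65% in GDF9 replicate 1 and 3.64% and 2.97% in the vehicle lists, and richer in promoters (23.6% against 19.8 to 20.9%). Regions called from GDF9 replicate 1 alone had 2.53% CpG-rich windows and 18.6% promoters, and from GDF9 replicate 2 alone 5.75% and 21.7%. The part of that list in the CpG content of the members was not tested.

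Among 17 sequence motifs searched on both strands of the same windows, AP-1 and the SP/KLF box were more frequent at the centre of the members than beside them, and the SMAD box was not. A SMAD box occurred in 44.3% of the member windows (42.7 to 45.9%), in 46.25% and 45.5% of the windows 2 kb before and after, in 46.7% of shared, 43.4% of vehicle-only and 52.0% of H3K27ac regions. Windows with 3 or more boxes were 3.37% of the members and 3.415% of the flanks. An AP-1 core occurred in 14.6% (13.5 to 15.8%) against 8.76% and 8.52% beside, in 16.4% of shared and 13.3% of vehicle-only regions. SP/KLF occurred in 9.78% (8.86 to 10.8%) against 3.48% and 3.75%, in 14.2% of shared and 2.85% of vehicle-only regions. The GC-rich SMAD element GGCGCC, which some SMAD proteins bind, was found in 3.32% against 1.21% and 1.15%. The CTCF core, the motif of the insulator protein, was rare, at 0.616% against 0.134% and 0.241%. Whole SMAD4 lists had SP/KLF in 6.18% of peaks for GDF9 replicate 2 and 3.42% for GDF9 replicate 1, with 3.48% and 3.15% for vehicle. Regions called from GDF9 replicate 1 alone had SP/KLF in 2.61%, and from GDF9 replicate 2 alone in 4.99%. The part of the GDF9 replicate 2 list in the SP/KLF share of the members was not tested.

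**Figure D3:**
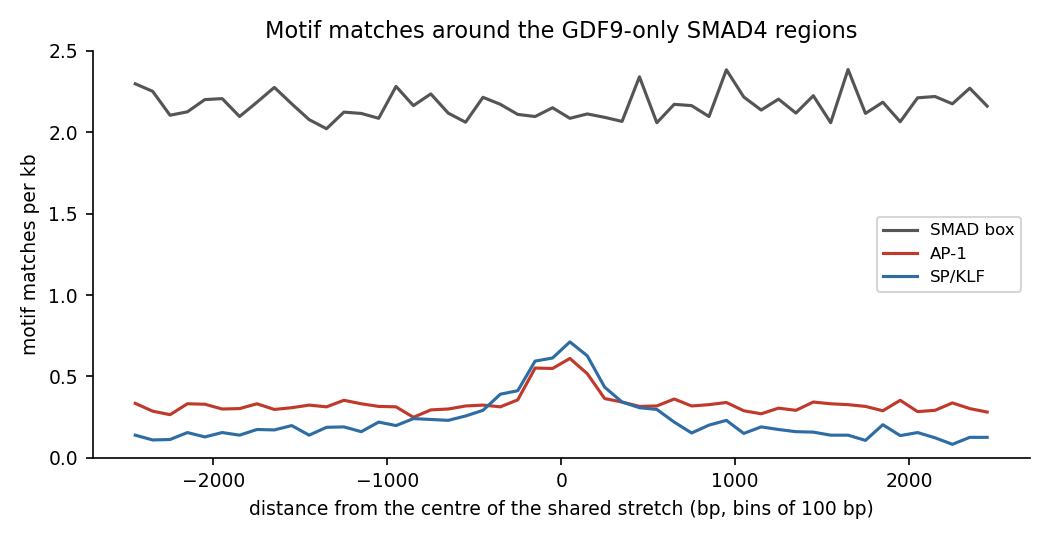
Matches per kb (y axis) of the SMAD box, the AP-1 core and the SP/KLF box in bins of 100 bp around the centre of the stretch shared by both GDF9 peaks (x axis, distance in bp), over the 3734 GDF9-only regions. AP-1 and SP/KLF rise at the centre to 0.61 and 0.71 per kb, and the SMAD box shows no rise there, with 2.09 per kb in the same bin.

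The motifs had different places. AP-1 was found in 29.0% (24.3 to 34.2%) of the 321 distal members with H3K27ac in all 4 lists, against 10.3% of their flanks, in 22.5% of those with the mark in 1 to 3 lists, in 12.5% (11.1 to 14.0%) of the 2016 without it and in 11.8% of promoters. The SMAD box share exceeded that of the flanks in the first of these 4 classes. It was 55.5% (49.98 to 60.8%) against 46.1% (42.3 to 49.97%), with intervals barely apart. Shared and vehicle-only regions of that class had a SMAD box in 59.1% and 48.5%. In distal members without the mark the SMAD box was found in 40.9%, with 43.8% beside. SP/KLF occurred in 28.7% of the promoters, against 5.83% beside them, and in 36.3% of shared and 7.36% of vehicle-only promoters. A SMAD box and an AP-1 core stood in one window at 249 members (6.67%, 5.91 to 7.51%), against 3.90% (3.48 to 4.36%) of flanks, as in the first set of sequences above. Shared and vehicle-only distal regions with the mark had AP-1 in 39.4% and 28.5%, so the share at GDF9-only regions was not the higher one.

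The members were spread unevenly over the chromosomes. Chromosomes 12, 15, 16, 18 and 19 held 1353 of them (36.2%) on 17.4% of the genome, at 2.85 per Mb against 1.14 on the other autosomes, a ratio of 2.51. The group was formed after the counts by chromosome were seen. Single values were 3.16 on chromosome 12, 1.80 on 15, 2.37 on 16, 3.25 on 18 and 4.20 on 19, and 0.819 to 1.52 on every other autosome. The ratio was higher still for shared (3.99) and vehicle-only (3.89) regions and was 2.02 to 2.61 in all 4 SMAD4 lists, but 0.815 to 1.01 in all 28 other lists. Within these chromosomes cut into 5 equal parts, the density was 3.99 per Mb in the first part and 1.65 in the last, while the other autosomes had 1.04 to 1.21 in every part. The excess thus belonged to the SMAD4 libraries with either treatment. What made it was not tested.

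**Figure D4:**
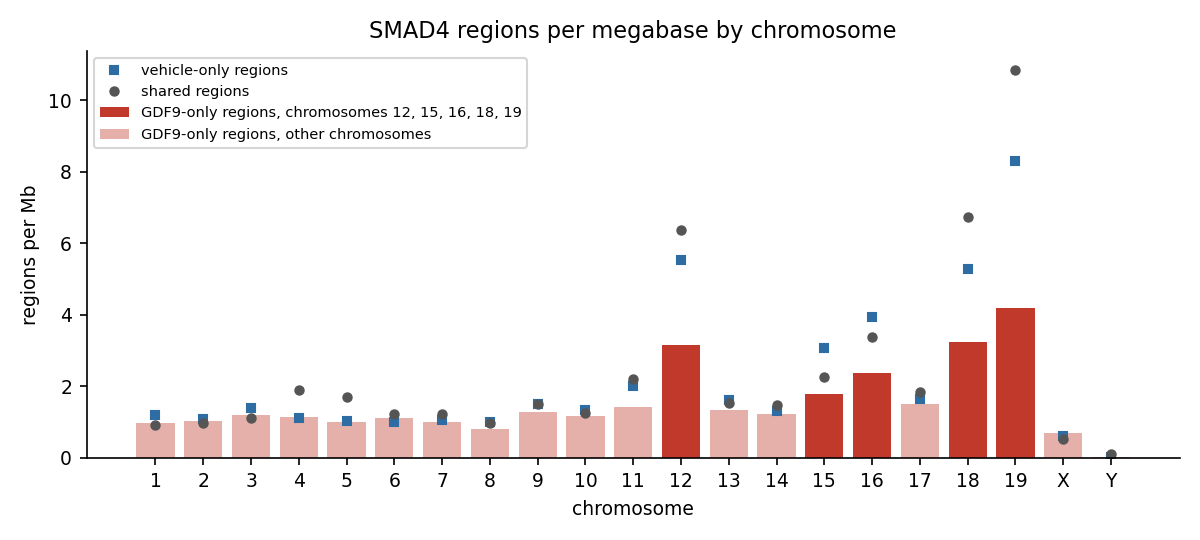
SMAD4 regions per Mb (y axis) by chromosome (x axis) for GDF9-only regions (bars, dark red for chromosomes 12, 15, 16, 18 and 19), shared regions (gray circles) and vehicle-only regions (blue squares). The dark bars stand at 1.80 to 4.20 per Mb and the bars of the other autosomes at 0.819 to 1.52, and shared and vehicle-only regions are also denser on those chromosomes, with higher ratios to the other autosomes (3.99 and 3.89).

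Members on those chromosomes had lower shares of marked and SMAD-occupied places. H3K27ac met 19.8% of them in GDF9 lists and 20.1% in vehicle lists, against 35.6% and 37.25% of the members on the other autosomes. SMAD3 of Smad2HA/+ cells met 21.0% and 23.1%, against 39.8% and 43.5%. Distal regions without the mark were 64.75% of the former and 45.9% of the latter, and promoters 21.1% and 33.8%. AP-1 was above its flanks on both, with 13.9% against 10.0% and 15.1% against 7.75%. Chromosome X had 120 members, of which SMAD2 met 25.4% with GDF9 and 12.9% with vehicle, PA 25% and 15.8%, and H3K27ac only 3.75% and 4.17%. The SMAD2 and PA lists of the line were themselves denser on X than on the other autosomes, with ratios of 2.01 to 2.60. Only their second vehicle lists had lower ratios, 1.375 for SMAD2 and 1.16 for PA. The part of these densities in the shares on X was not tested. Elsewhere the members were scattered, with 302 within 10 kb of another and a median distance of 120.6 kb.

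RNA-seq of the same line asked whether genes at the members changed with GDF9. The 4 libraries held 8827825 to 11416005 assigned reads. Of the 8 granulosa markers 6 were expressed and their summed normalized counts were 27643 to 28020 with GDF9 and 27660 to 28594 with vehicle. Cyp19a1 and Amh were near 0 in all libraries, and so were the theca markers Cyp17a1 and Insl3. With Star, which brings cholesterol into mitochondria and is also made by steroid-producing granulosa cells, the theca markers summed to 7778 to 8073 with GDF9 and 7619 to 7672 with vehicle, so that nearly all of the sum was Star. Keratins 8 and 18 with Upk3b, markers of the surface epithelium, summed to 3770 to 3836 with GDF9 and 3675 to 3798 with vehicle. Stroma, endothelium, macrophage and oocyte markers summed to at most 172.8 each in every library. Fewer cells of a type and less RNA per cell cannot be told apart in such bulk samples.

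A gene was assigned to a region that overlapped its promoter, an exon, a UTR or its first intron, and 1981 members (53.1%) met 2238 annotated genes in this way, of which 1420 were expressed well enough to be tested. Of these 1420, 59 (4.155%, 3.24 to 5.32%) were called, meaning a Benjamini-Hochberg adjusted p under 0.05 by limma over all tested genes with a log2 fold change beyond 0.18, the limits of the study. Over all 12193 tested genes with a position, 2.98% were called. Higher with GDF9 were 44 (3.10%), with 2.26% over all genes, and lower were 15 (1.06%), with 0.722% over all genes. The share was 3.20% at shared and 3.94% at vehicle-only regions, 4.18% at genes with a GDF9-only region and no other SMAD4 region, and 2.66% at genes with none. The interval for the members overlapped those for both other sets. The median log2 fold change was -0.0199 at the members and -0.00836 over all genes, so there was no common shift. Over all tested genes, mitochondrial transcripts and noncoding RNAs that stay in the nucleus were also higher with GDF9. Of 11 mitochondrial genes tested, 9 were called higher (log2 fold change 0.26 to 0.48) and none lower, and together the 11 took 3.56% and 3.26% of the normalized counts of tested genes with GDF9 and 2.51% and 2.50% with vehicle. Of 6 such noncoding RNAs, Malat1, Neat1, Meg3, Kcnq1ot1, Firre and Xist, all were called higher (0.63 to 2.32), and Xist was the only one at a member. Both lists were chosen after their values were seen, and their part in the 44 increases was not tested. Fewer genes at members were called without vehicle replicate 1 of the RNA-seq (39, with 1.58% over all genes), without a filter on low values (30, with 1.04%) and by DESeq2 on the recovered reads (31, with 1.00%).

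Gene footprint, the sequence searched for overlap with a region (promoter, exons, UTRs and first intron), moved with this count. Genes at members had footprints of 32.1 kb at the median, promoter included, against 18.85 kb over all genes. Tested genes were divided by footprint into 4 groups of equal size. In the group with the largest footprints 38 of 662 genes at members were called (5.74%, 4.21 to 7.78%). Of the others in that group, 79 of 2386 were called (3.31%, 2.67 to 4.11%). In the other 3 groups the shares were 2.27% against 2.12%, 3.42% against 2.84% and 2.59% against 3.11%, all with overlapping intervals. The part of footprint size in the difference was not tested, and the full length of the genes was not compared. By class, called genes made up 4.13% of 872 at promoter members, and at distal members 5.195% of 154 with H3K27ac in all 4 lists (2.655 to 9.915%), 6.92% of 130 with the mark in 1 to 3 lists and 3.36% of 357 with it in none. They made up 5.48% of the 146 genes with at least 2 members. Of the 59, 13 also had a shared region and 16 a vehicle-only region.

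For the called genes described next, 5 member windows are shown, chosen to cover increases and decreases and the 3 motifs, with the same capitals as above.
Stx16 promoter (chr2:174075902-174076002): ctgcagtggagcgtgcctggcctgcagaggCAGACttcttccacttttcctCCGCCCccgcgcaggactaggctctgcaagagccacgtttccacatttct
Pmepa1 promoter (chr2:173276537-173276637): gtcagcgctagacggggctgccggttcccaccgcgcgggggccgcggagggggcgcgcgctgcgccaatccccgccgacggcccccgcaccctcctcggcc
Adamts9 promoter (chr6:92941402-92941502): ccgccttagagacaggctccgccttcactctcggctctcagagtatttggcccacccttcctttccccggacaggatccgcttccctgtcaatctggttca
Rgl1 intron (chr1:152621776-152621876): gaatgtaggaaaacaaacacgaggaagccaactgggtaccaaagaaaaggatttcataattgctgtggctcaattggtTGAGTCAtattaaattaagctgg
Nceh1 first intron (chr3:27209753-27209853): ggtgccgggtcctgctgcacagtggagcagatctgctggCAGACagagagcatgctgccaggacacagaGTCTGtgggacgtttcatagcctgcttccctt
The Stx16 window held a SMAD box and an SP/KLF box, that of Rgl1 an AP-1 core and that of Nceh1 a pair of SMAD boxes. Neither the Adamts9 nor the Pmepa1 window held any of the 3 motifs, and that of Pmepa1 had 17 CpG pairs.

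The largest increase among genes at members was that of Xist, the long noncoding RNA that silences one X chromosome in female cells. Its normalized counts were 7758 and 6600 with GDF9 and 4016 and 4012 with vehicle, a log2 fold change of 0.83 (SE 0.047, limma adjusted p = 1.0e-13). The member lay 0.895 kb upstream of its start site (chrX:103483780-103484472), with stacks of 4 and 6 fragments, a vehicle peak 841 bp away and H3K27ac in 2 of 4 lists. Other noncoding RNAs of the nucleus rose beside it, such as Malat1, with 28822 and 26912 normalized counts against 10976 and 11150 (log2 fold change 1.33, limma adjusted p = 2.8e-23), and their part in the rise of Xist was not tested. The libraries were strand-specific, but whether reads were counted by strand is not given in the sources used here, and a count without strand would join Xist with its antisense partner.

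Nfat5, the transcription factor of the osmotic stress response, had 3138 and 2880 normalized counts with GDF9 and 2060 and 2137 with vehicle (log2 fold change 0.52, limma adjusted p = 1.7e-09). Its member lay in the first intron with H3K27ac in 3 lists, 213 bp from a vehicle peak, and the gene also had a shared region. Stx16, a SNARE protein of Golgi traffic, had 863.0 and 781.8 with GDF9 and 608.7 and 622.0 with vehicle (0.42, adjusted p = 6.5e-05). Kmt2d, which methylates histone H3 at enhancers, rose by 0.41 with a member in an exon marked by H3K27ac in all 4 lists. Among the other large increases were Clcn6 (0.52), a chloride transporter of endosomes, Syne2 (0.45), which links the nucleus to the cytoskeleton, Tanc2 (0.45), a scaffold protein with 3 members in its first intron, Nrep (0.42), Zc3h7a (0.41) and Slc4a3 (0.41), an anion exchanger. The 2 GDF9 libraries were above both vehicle libraries for each of these genes and Xist, 10 in all.

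Adamts9, a secreted metalloprotease that cleaves matrix proteoglycans, showed the largest decrease. It had 636.4 and 651.2 normalized counts with GDF9 and 969.3 and 921.5 with vehicle, a log2 fold change of -0.55 (SE 0.060, limma adjusted p = 1.7e-07). Its member lay 2.04 kb downstream of the start site (chr6:92941155-92941867), with stacks of 6 and 7 fragments, H3K27ac in all 4 lists, and SMAD3 and HA in all 4 lists each of the other line. It also overlapped the neighbouring transcript 9530026P05Rik. Prlr, the prolactin receptor, had 635.4 and 560.2 with GDF9 and 749.9 and 762.9 with vehicle (-0.34, adjusted p = 0.00158). Its member lay 18.78 kb inside the gene on chromosome 15, with no H3K27ac and no SMAD3 or HA peak in the other line.

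The other 8 of the 10 largest decreases were smaller. Sspn (-0.50), a partner of the dystrophin complex, had a spread between vehicle libraries of 189.5 and 144.4 and an adjusted p of 0.036. Fzd5 (-0.32), a WNT receptor, Rgl1 (-0.30), an activator of RAL GTPases, and Fkbp5 (-0.25), a co-chaperone of the glucocorticoid receptor, each had members with H3K27ac in all 4 lists, Rgl1 and Fkbp5 at 2 regions each. The rest were Pkp4 (-0.26), a cell junction protein, Nceh1 (-0.24), which hydrolyses cholesterol esters, P3h2 (-0.24), which modifies collagen prolines, and Shroom3 (-0.24), which organises apical actin. GDF9 and vehicle libraries did not overlap for any of these 8. Of them Sspn, Fzd5, Pkp4, Nceh1 and P3h2 lost their calls in at least 1 fit without a library, as Clcn6 did among the increases.

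**Figure D5:**
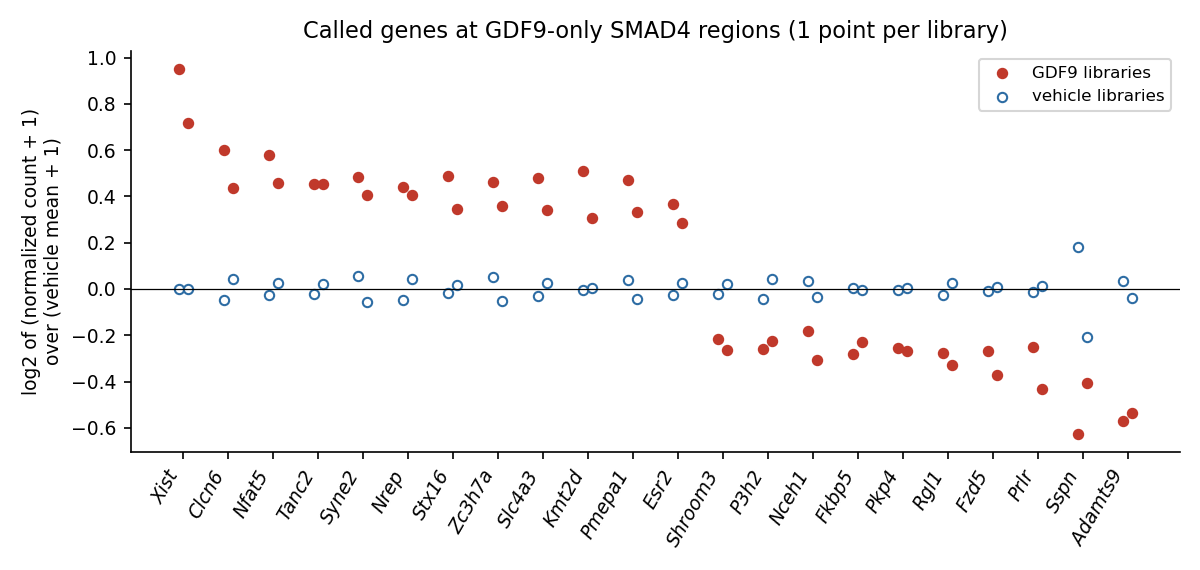
Log2 of each library's normalized count plus 1 over the vehicle mean plus 1 (y axis), for 22 called genes at GDF9-only regions (x axis), with filled red points for GDF9 libraries and open blue points for vehicle libraries. Red and blue points are apart for every gene, and Sspn has the widest spread between its vehicle libraries.

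Gene lists of the pathway and the tissue gave few called genes at the members. Of 22 tested feedback and target genes of SMAD2/3 signaling, 4 were called higher and 6 lay at members, of which Pmepa1 alone was called. Pmepa1, which sequesters SMAD2 and SMAD3 away from their receptors, had 1026 and 931.8 normalized counts with GDF9 and 761.4 and 719.5 with vehicle (0.40, limma adjusted p = 5.6e-05). Its member covered the start site (chr2:173276267-173277417), with H3K27ac in all 4 lists and a vehicle peak 383 bp away, and the gene had a shared region too. Inhba, the activin beta A subunit, had 10768 and 11078 with GDF9 and 12060 and 11896 with vehicle (-0.13, adjusted p = 0.015), below the fold limit. The other 4, Smurf2, Zfyve16, Zfyve9 and Ski, had log2 fold changes of -0.03 to 0.03.

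Receptors and SMAD genes of the TGF-beta family gave no call among 19 tested. The 3 at members were Bmpr2 (0.08), Acvr2a (-0.08) and Smad4 itself (-0.09), which had 2 members near start sites. BMPR2 and ACVR2A are both among the type II receptors that the study lists for GDF9. For the BMP list, 1 of 12 rose and 1 fell, and its only gene at a member, Bmp6, had 0.14 (adjusted p = 0.313). Among 19 genes of cumulus expansion and ovulation, 3 rose and 2 fell, and the only one at a member was Runx2 (-0.05), a transcription factor of the ovulatory follicle. The early response genes of AP-1, EGR and NR4A had 7 of 17 higher, but the only one at a member, the AP-1 subunit gene Fosl2, had -0.04 (adjusted p = 0.639).

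Among 19 genes of granulosa identity and steroid synthesis, 4 rose and 3 fell, and 5 lay at members. Esr2, estrogen receptor beta, the main estrogen receptor of granulosa cells, had 398.8 and 376.4 with GDF9 and 303.2 and 314.5 with vehicle (0.33, limma adjusted p = 0.021). It had 2 members, one of which, on chromosome 12, overlapped its promoter and carried H3K27ac in all 4 lists and SMAD3 and HA in all 4 lists each, 427 bp from a vehicle peak. The call of Esr2 was lost without GDF9 replicate 1 (0.28), vehicle replicate 1 (0.30) or vehicle replicate 2 (0.35). Prlr fell, as given above. Esr1 (-0.01), Gata6 (-0.04), a transcription factor of granulosa cells, and Cyp11a1 (0.04), the enzyme that starts steroid synthesis, were not called. Cyp11a1 was at 45753 and 46036 with GDF9 and 44250 and 44984 with vehicle, although its member held H3K27ac, SMAD3 and HA in all 4 lists each.

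Of 26 matrix and adhesion genes, 4 rose and 2 fell, and 5 lay at members, among them Adamts9. Lama2, the laminin alpha 2 chain, had 37.3 and 50.3 normalized counts with GDF9 and 25.3 and 27.5 with vehicle (0.70, adjusted p = 0.141). Lama3 (0.33), Lamc1 (-0.07) and Itga5 (0.06) were not called either. Lama2 and Kcnma1, a potassium channel (0.24, adjusted p = 0.543), were the only 2 of 16 tested genes that the study names which lay at a member, and both also had a vehicle-only region.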

How the data were processed

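The members, gene lists, motifs and classes were chosen with earlier results of these data known. Reads were aligned to mm10 by the authors (Bowtie2 for CUT&RUN, STAR 2.7.11b and featureCounts 2.1.1 for RNA-seq). The authors called CUT&RUN peaks per sample with SEACR after scaling to an E. coli spike-in, and the deposited lists give total and maximum signal per peak. No source used here names the SMAD4 antibody or the control track for calling, and the 8 IgG samples were not analysed here.

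Lists were compared by overlap (1 bp or more; autosomes, X and Y) with Python 3.11.15 (numpy 2.4.6, pandas 2.3.3, scipy 1.17.1). Start sites, exons, UTRs and introns came from a GENCODE annotation of the GRCm38 build, and repeats and sequence from RefSeq GRCm38. Motifs were searched within 150 bp of the centre of the stretch shared by both peaks and, for the flanks, 2 kb to either side. Shares of lists were compared by exact two-sided permutation, which for 2 against 2 lists cannot go below p = 0.333.

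The deposited RNA-seq table holds normalized counts, that is reads divided by size factors (a signal that the authors made with DESeq2 1.48.2), and 3 columns of the authors' own comparison, which were not used. Genes with a mean of at least 10 were tested with limma 3.58.1 (trend) on log2(value + 1) in R 4.3.3. Fold changes are on that scale, which understates those of low genes, and 12597 genes were tested, of which 396 were called. The study reports more altered genes at the same limits from its own DESeq2 comparison. The calls given here are thus not the study's set. Whole reads were recovered from 100% of the values (within 0.05) and tested with edgeR 4.0.16 (441 called) and DESeq2 1.42.0 (133 called). The pipeline was tested on simulated data. The sequence of 1 region is not reported here.

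Named genes were those called at members with the 10 largest increases and decreases at a mean of at least 50 normalized counts, and members of the gene lists. Named regions were the 10 highest by the lower of both within-list percentiles. The alternatives were other peak and overlap limits, promoter and window sizes, offsets, filters, scalings, tools, the replicate block and leaving out each list or library. Dropping chromosomes 12, 15, 16, 18 and 19, and leaving out a list of the compared antibody with the members kept, were added after the data were seen.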

Additional observations from a re-analysis of the deposited data

Results flagged for a closer look

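In both lines the lists of an antibody stood apart by treatment at the GDF9-only regions, but in opposite directions. For H3K27ac the GDF9 lists met fewer of the members than the vehicle lists in Smad3PA/PA cells, by -1.14 percentage points, and more in Smad2HA/+ cells, by 1.02 points. For SMAD2 the GDF9 lists met more in Smad3PA/PA cells, by 5.745 points, and fewer in Smad2HA/+ cells, by -2.32 points. In each of these 4 cases both GDF9 lists lay on one side of both vehicle lists. The difference between the lines was not tested. The same signs were seen in shared regions, with -0.9998 and 1.14 points for H3K27ac and 12.28 and -1.98 for SMAD2. In vehicle-only regions the SMAD2 signs were also opposite (3.31 and -1.04), but both H3K27ac values were below 0 (-1.30 and -0.479). The SMAD2 value of Smad3PA/PA cells rests on the short second vehicle list and was 0.442 points when that list alone was left out. The lists also differed in genome coverage. H3K27ac lists of Smad3PA/PA cells covered 3.965 and 3.99% with GDF9 and 4.37 and 4.775% with vehicle. SMAD2 lists of Smad2HA/+ cells covered 3.85 and 3.75% against 4.15 and 4.07%. H3K27ac lists of Smad2HA/+ cells, at 16.7 and 17.2% against 17.3 and 17.3%, went against their shares. The part of coverage was not tested.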

How the results depend on the processing

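The count of GDF9-only regions depended on the lists and the limits. Leaving out 1 list each gave 4882 to 51505 GDF9-only and 6312 to 50002 vehicle-only regions. Promoters then held 18.6 to 30.7% of members, and 43.4 to 46.1% had a SMAD box. Called genes at members were 73 to 223, or 3.35 to 4.00% of 1826 to 6664 tested, with 2.98% over all genes. With the SMAD4 list and the list of the compared antibody left out together, so that the members changed, the list differences ranged from -0.0615 to 3.19 points for PA, 0.973 to 13.7 for SMAD2 and -1.26 to -0.461 for H3K27ac. With the members kept and only a list of the compared antibody left out, an alternative added after seeing the data, they ranged from -0.0268 to 3.27 for PA, 0.442 to 11.05 for SMAD2 and -1.70 to -0.576 for H3K27ac. The PA values below 0 were those without vehicle replicate 2. With only the top 50% of each list there were 1697 GDF9-only and 2126 vehicle-only regions. Of the GDF9-only regions 35.1% were in promoters, and 31 of 776 tested genes at them were called (3.99%). Requiring 50% of both peaks to be shared left 2461 members, 31.5% in promoters and 46.1% with a SMAD box. Without chromosomes 12, 15, 16, 18 and 19, chosen after seeing the data, there were 2381 and 2651, with 32.6% in promoters. Promoters of 1 kb held 17.5%, and a window of 200 bp to either side held a SMAD box in 54.6%. No vehicle peak within 1 kb left 2830 members.

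In RNA-seq, 187 genes were called with no filter on low values, 30 of them at members (1.91% of those tested, with 1.04% over all genes). DESeq2 called 133, with 31 at members (2.18%, with 1.00% over all genes). Leaving out 1 library each gave 215 to 583 called genes, 39 to 82 at members, the fewest without vehicle replicate 1 and the most without GDF9 replicate 2. The 2 GDF9 and 2 vehicle libraries share only a replicate number (correlation of same-numbered deviations 0.00502). With the replicate block 535 genes were called, 74 of them at members (5.21% of those tested, with 4.07% over all genes). Of the 22 named called genes, 15 kept their call in all 11 alternatives and none of the 451 values changed sign in a called gene. The lost calls were of Clcn6, Sspn, Fzd5, Pkp4, Nceh1, P3h2 and Esr2. In every RNA-seq alternative the share called was higher at members than over all genes. With stacks of 4 to 5 fragments, a peak absent from a list is not shown to be absent from the cells.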
